A study of Rattus norvegicus with 16 samples.

Results

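The proteasome genes were examined in soleus muscle, a mostly slow-twitch postural muscle, of 16 female rats of 2 lines bred for running capacity. Members were all probe sets with a single gene symbol that starts with Psma, Psmb, Psmc, Psmd, Psme, Psmf or Psmg, and each gene was read at the probe set of highest mean over the 16 arrays. This gave 46 genes, at 60 probe sets, of 14217 genes with a single symbol. The groups were HCR trained, HCR sedentary, LCR trained and LCR sedentary, with 4 rats and 4 arrays in each. HCR rats come from parents bred over generations for long running distance, and LCR rats from parents bred for short distance. Both lines came from generation 16 of the N:NIH stock, after selection on a treadmill test at 11 weeks of age. Trained rats ran on 5 days a week for 8 weeks, 1.5 h a session at an incline of 25 degrees, in 8 min bouts at 85 to 90% of maximal oxygen uptake with 2 min of recovery. All rats were killed at about 7 months, 48 h after training ended where they had trained. The sedentary rats also went without the oxygen uptake tests, so training and testing cannot be told apart, and 1 soleus of each rat was used.

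The proteasome degrades proteins tagged with ubiquitin. Its 20S core is a barrel of stacked alpha and beta rings, and 3 of the beta subunits, Psmb5, Psmb6 and Psmb7, cut the substrate. The 19S cap holds a ring of ATPases (Psmc genes) that unfold the substrate, and non-ATPase subunits (Psmd genes) that bind ubiquitin and remove it. Cells exposed to interferon exchange the cutting subunits for Psmb8, Psmb9 and Psmb10, which form the immunoproteasome. Skeletal muscle uses the ubiquitin-proteasome system to break down contractile proteins, and the system is known for its activation during muscle wasting.

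By role, the 46 genes held 7 alpha, 6 beta and 3 inducible beta subunits, and 6 ATPases and 11 non-ATPases of the 19S cap. The others were 4 activators and inhibitors, 7 assembly chaperones, and 2 further genes taken by the prefix. The last 2 are Psmc3ip, a meiotic recombination factor, and Psme3ip1, a protein that binds Psme3. The label of proteasome subunits thus fits 33 genes of the 20S and 19S particles, of which 30 are standard and 3 inducible. The rest act on the particle, bind Psme3 (Psme3ip1) or share a name (Psmc3ip). Another 6 probe sets had a proteasome symbol beside others and stayed out: 4 of Psme3, and 1 each of Psmb6 and Psma3. Psmb6, the partner of Psmb9, was therefore not measured, and Psma3 was read at another probe set. The Psma3 probe set left out also names Psma3l, and whether the one used reads that copy too was not tested.

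The promoters of Psmb8, Psmb10 and Psme2 are shown because these interferon-inducible genes hold an interferon motif, and that of Psmb5 because it is the standard counterpart of Psmb8. Sequences are from RefSeq, assembly GRCr8, 250 bases before to 50 bases after the transcription start, and 42 of 46 members had an entry. Where a member had several entries the first was used, while the shares of all windows count every entry. Positions and absences below thus hold for 1 start per gene, and the whole Psme2 window lies within the gene range given below. Capitals mark the core of the interferon-stimulated response element (GAAA, any 2 bases, GAAA, on either strand) in the first 3, and the antioxidant response element core, TGACNNNGC on either strand, in Psmb5.
Psmb8, chr20:4656982-4657281, minus strand: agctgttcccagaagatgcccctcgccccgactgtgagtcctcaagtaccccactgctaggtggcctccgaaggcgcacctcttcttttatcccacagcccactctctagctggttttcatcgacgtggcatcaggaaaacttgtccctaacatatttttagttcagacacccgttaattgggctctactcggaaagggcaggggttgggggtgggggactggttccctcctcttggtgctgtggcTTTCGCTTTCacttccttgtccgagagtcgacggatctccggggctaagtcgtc
Psmb10, chr19:50743243-50743542, minus strand: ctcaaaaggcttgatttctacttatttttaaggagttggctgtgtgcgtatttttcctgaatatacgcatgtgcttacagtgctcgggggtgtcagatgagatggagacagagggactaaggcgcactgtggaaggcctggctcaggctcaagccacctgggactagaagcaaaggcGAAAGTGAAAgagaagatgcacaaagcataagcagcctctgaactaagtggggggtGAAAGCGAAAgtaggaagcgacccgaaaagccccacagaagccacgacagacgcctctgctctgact
Psme2, chr15:33052702-33053001, minus strand: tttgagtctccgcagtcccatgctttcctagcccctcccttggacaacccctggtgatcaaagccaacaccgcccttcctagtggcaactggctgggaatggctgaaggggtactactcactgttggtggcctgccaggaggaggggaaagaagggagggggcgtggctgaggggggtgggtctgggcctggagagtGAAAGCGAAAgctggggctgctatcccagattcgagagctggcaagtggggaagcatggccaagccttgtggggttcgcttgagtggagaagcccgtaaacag
Psmb5, chr15:32047330-32047629, minus strand: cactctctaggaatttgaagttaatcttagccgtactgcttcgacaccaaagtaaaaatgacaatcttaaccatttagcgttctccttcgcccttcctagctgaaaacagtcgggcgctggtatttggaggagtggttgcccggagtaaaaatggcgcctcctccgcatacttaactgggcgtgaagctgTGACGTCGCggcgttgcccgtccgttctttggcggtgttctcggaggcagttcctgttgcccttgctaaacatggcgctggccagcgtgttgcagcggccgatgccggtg

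The interferon motif lay at bases -4 to 6 from the start in Psmb8, on the strand opposite to the gene. Psmb10 held the motif at -73 to -64 and again at -17 to -8. In Psme2, a subunit of the interferon-inducible proteasome activator, it lay at -53 to -44. The letters were not in the windows of Psmb9 and Psme1. Among the 42 member windows 7 held the motif (16.7%), against 1312 of 33469 windows in the table (3.92%). The other 4 were Psma4, Psmb3, Psmd7 and Psmg4. The antioxidant motif, which the factor Nfe2l2 is known to bind, was in 7 of 42 member windows (16.7%), against 12.1% of all windows. The GC box, GGGCGG on either strand, was in 29 of 42 (69.0%), against 33.1%, and CCAAT on either strand was in 22 of 42 (52.4%), against 37.5%. These shares describe letters in windows and show no binding. On the genome, Psmb8 (chromosome 20, 4654068 to 4657049) and Psmb9 (chromosome 20, 4668952 to 4674421) lie near each other, as do Psme1 (chromosome 15, 33038962 to 33041849) and Psme2 (chromosome 15, 33048452 to 33053055).

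Values below are log2 expression as deposited, so a difference of 1 is a doubling. Signals of different probe sets depend on the probes, and levels were not compared between genes. Differences were tested with limma over 31042 probe sets with Benjamini-Hochberg adjustment, and a gene passed at an adjusted p under 0.05. RNA came from whole muscle, so fewer cells of a type and less RNA per cell cannot be told apart.

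Several arrays stood apart before any group was compared. For 24 of the 46 genes the highest of 16 values was on HCR sedentary 2, an array that held the highest value of 16.6% of all genes. For 17 of the 46 the lowest value was on HCR trained 2, which held the lowest value of 5.98% of all genes. The mean of the 30 standard 20S and 19S subunits, as a deviation from each gene's mean over the arrays, was 0.30 on HCR sedentary 2, -0.27 on HCR trained 2 and -0.19 on LCR sedentary 1, and lay between -0.05 and 0.10 on the other 13 arrays. A labelling control, the 3' minus the middle beta-actin control probe set, was lowest on HCR sedentary 2 (0.38) and highest on HCR trained 2 (2.37) and LCR sedentary 1 (2.07), against 1.06 to 1.97 on the other 13. A second control, the 3' minus the 5' GAPDH probe set, was 1.67 on HCR trained 2 and 0.48 to 0.77 on the other 15 arrays, and did not set HCR sedentary 2 (0.56) or LCR sedentary 1 (0.76) apart. Markers of fibroblasts and matrix (7 genes) and of macrophages and leukocytes (13 genes) had their highest mean deviations on HCR sedentary 2, 1.93 and 1.29. HCR trained 3 had a slow fibre mean of -2.28 and a fast fibre mean of 2.27, against -0.01 to 0.25 and at most 1.04 on the other 15 arrays. Myh4, the fastest myosin heavy chain, was 11.08, 8.43, 13.57 and 9.98 in HCR trained rats, against 4.76, 8.03, 4.88 and 5.05 in HCR sedentary rats and 4.83 to 5.80 in LCR rats. It was thus high in all 4 HCR trained rats, and it passed the threshold for HCR training (5.09, limma adjusted p = 0.0475) and between trained lines (5.48, limma adjusted p = 0.0281). The beta-actin control also differed between groups. Its mean was 1.90 in HCR trained, 1.18 in HCR sedentary, 1.27 in LCR trained and 1.65 in LCR sedentary rats. Fits with this control as a covariate thus cannot separate labelling from line and training. The part of these measures in the results below was not tested. Values with the covariate or without an array are given as a description.

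**Figure D1:**
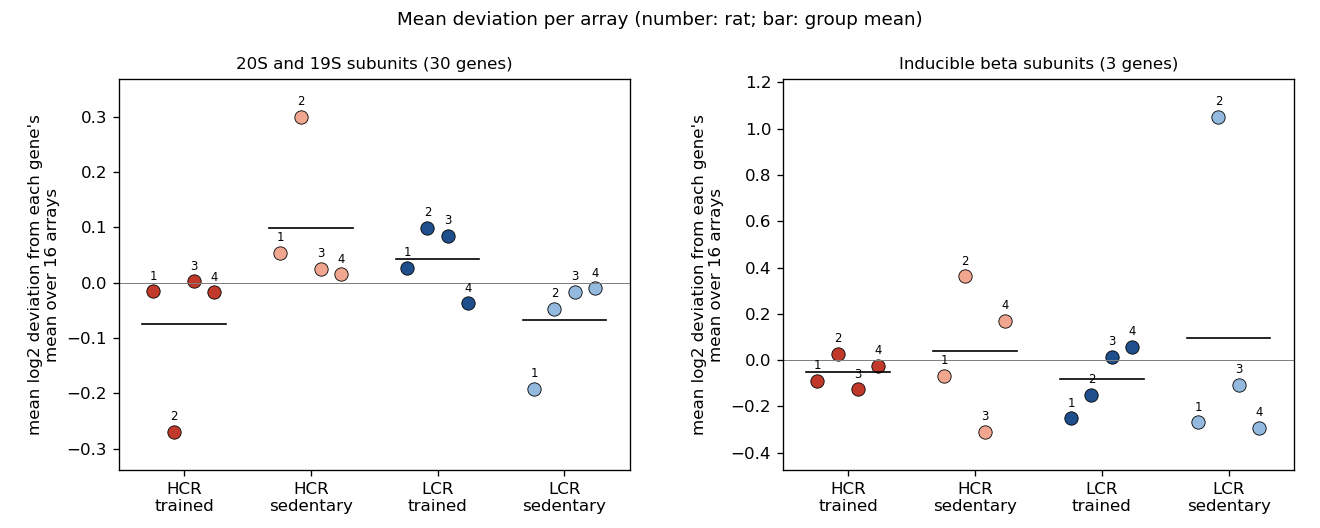
Mean log2 deviation per array of the 30 standard 20S and 19S subunits (left) and of the 3 inducible beta subunits (right); numbers are rats and bars are group means. HCR sedentary 2 (0.30) and HCR trained 2 (-0.27) lie at the ends on the left, and LCR sedentary 2 (1.05) lies above all other arrays on the right.

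Training of HCR rats left no proteasome gene past the threshold. The count was 0 of 46, and 58 of 31042 probe sets (0.187%) passed in this comparison. At an unadjusted p under 0.05, 3 members were higher (13.3% of all genes were) and 16 were lower (5.79% of all genes). The median difference over the 46 genes was -0.12, with 18 of 46 above 0, beside 0.02 over all genes, of which 55.2% were above 0. Of the 30 standard subunits 8 had a difference above 0 (4 without HCR sedentary 3, 10 without HCR sedentary 2), and their median was -0.17. With the beta-actin control as a covariate the number above 0 was 15 of 30, and the median over the 46 genes was 0.0044. Without HCR sedentary 2 the median was -0.04, and without both HCR sedentary 2 and HCR trained 2 it was -0.03.

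The member of smallest p was Psmd8, a 19S non-ATPase. It measured 10.07, 9.56, 9.76 and 9.83 in HCR trained rats, against 9.96, 10.61, 10.25 and 10.18 in HCR sedentary rats. The groups overlapped, since HCR trained 1 lay above HCR sedentary 1. The difference was -0.44 ± 0.12 (SE, limma adjusted p = 0.105).

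Psmb1, a beta ring subunit, measured 10.98, 10.68, 10.98 and 10.92 in HCR trained rats, against 11.13, 11.48, 11.11 and 11.08 in HCR sedentary rats. All 4 trained rats lay below all 4 sedentary rats, with a difference of -0.31 ± 0.09 (SE, limma adjusted p = 0.131). Psma4, an alpha ring subunit, measured 9.74, 9.45, 9.61 and 9.81 in HCR trained rats, against 10.01, 10.40, 9.94 and 9.84 in HCR sedentary rats. These groups did not overlap either, and the difference was -0.40 ± 0.13 (SE, limma adjusted p = 0.144). Psmd11, a 19S lid subunit, measured 10.79, 10.31, 10.85 and 10.63 in HCR trained rats, against 10.96, 11.70, 10.97 and 10.89 in HCR sedentary rats. The groups were again apart, the difference was -0.49 ± 0.17 (SE, limma adjusted p = 0.169), and it was -0.30 without HCR sedentary 2. In all, 0 members were higher and 5 lower with no overlap between the groups, against 6.13% and 2.19% of all genes. The other 2 were Psmc2, an ATPase, and Psmd13, a non-ATPase.

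By role, differences above 0 in HCR training were found for 3 of 7 alpha subunits, 2 of 6 beta subunits, 1 of 6 ATPases, 2 of 11 non-ATPases and 6 of 7 chaperones. Psmg1, a chaperone of alpha ring assembly, measured 9.14, 9.13, 9.17 and 9.31 in HCR trained rats, against 8.94, 8.80, 8.93 and 9.16 in HCR sedentary rats. Only HCR sedentary 4 reached the trained values, and the difference was 0.23 ± 0.08 (SE, limma adjusted p = 0.176). Psma3 was the one alpha subunit with an unadjusted p under 0.05 and a positive sign, at 0.26 ± 0.10 (SE, limma adjusted p = 0.196), and its difference was 0.17 without HCR trained 3.

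**Figure D2:**
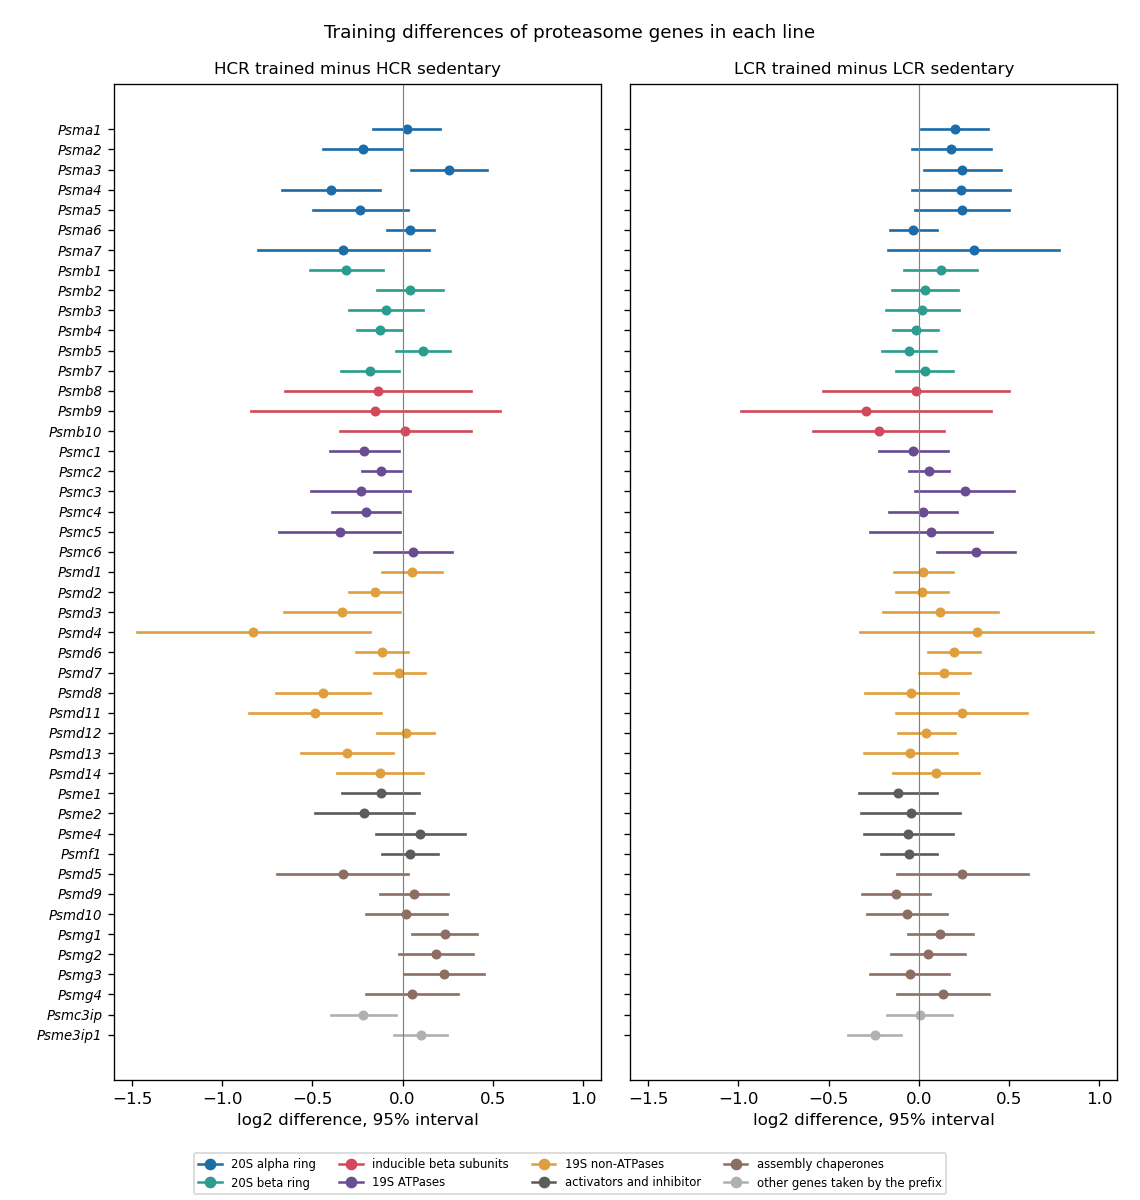
Trained minus sedentary log2 difference of each of the 46 genes in HCR rats (left) and LCR rats (right), with 95% intervals from the limma fit, coloured by role. Of the 30 standard subunits, 8 points lie to the right of 0 in HCR and 24 in LCR, and 0 genes passed the threshold in either line.

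Psmd4, the ubiquitin receptor of the 19S cap, had the largest difference in size, at -0.83 ± 0.30 (SE, limma adjusted p = 0.181), and it was -0.49 without HCR trained 2. It measured 9.41, 7.98, 9.27 and 9.31 in HCR trained rats, against 9.98, 10.11, 9.94 and 9.26 in HCR sedentary rats. HCR trained 2 lay far below the other trained rats, and HCR sedentary 4 was as low as those. Among the LCR rats Psmd4 was 9.90, 9.86, 10.00 and 9.57 in the trained, against 8.93, 9.30, 9.90 and 9.93 in the sedentary, where LCR sedentary 1 was the lowest.

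Psmd7, another 19S lid subunit, was read differently by its 2 probe sets. The brighter one lay between 10.00 and 10.10 in HCR trained rats, against 9.99 to 10.22 in HCR sedentary rats. The dimmer one measured 8.54, 6.35, 8.58 and 8.33 in HCR trained rats, against 9.56, 9.90, 9.57 and 8.13 in HCR sedentary rats. The differences were -0.02 ± 0.07 and -1.34 ± 0.55 (SE, limma adjusted p = 0.914 and 0.227), and that of the dimmer one was -0.80 without HCR trained 2. In the dimmer probe set, as in Psmd4, the lowest value was on HCR trained 2 and the highest on HCR sedentary 2, the arrays at both ends of the beta-actin control. Psmd14, the deubiquitinase of the lid, had differences of -0.13, -0.47 and -0.06 at its 3 probe sets, and Psmd11 had -0.49, -0.06 and 0.02. Of the 46 genes 9 had several probe sets, and in 4 of these the signs differed for HCR training. Over all 60 probe sets and 5 comparisons the smallest adjusted p was 0.0872.

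**Figure D3:**
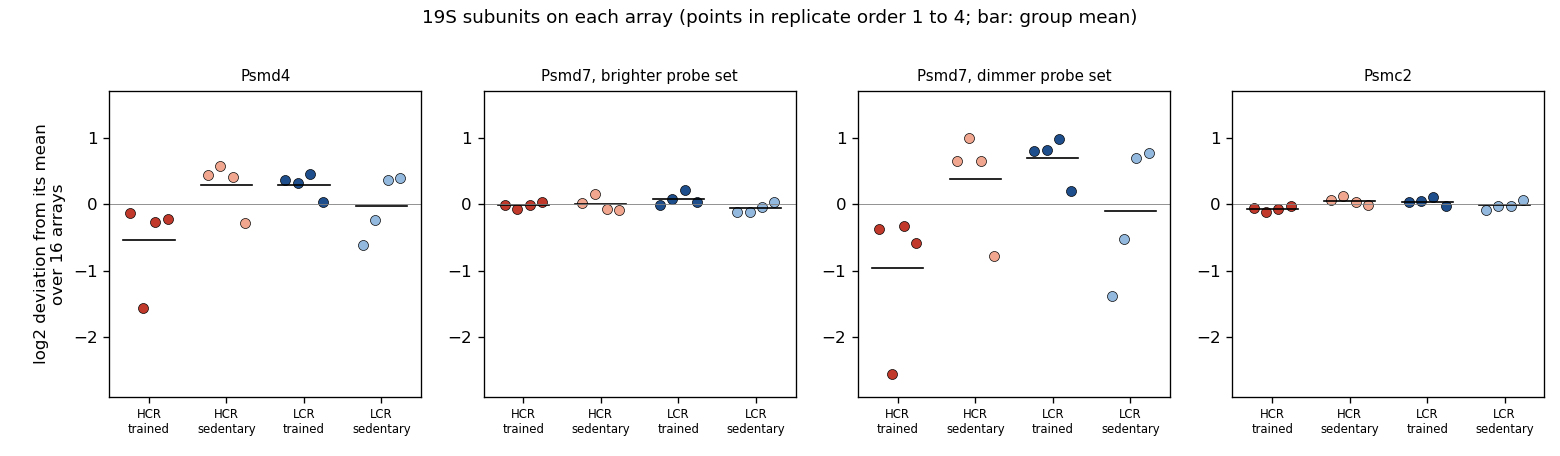
Log2 deviation of 4 probe sets of 19S genes from their own mean on each array, points in replicate order within a group and bars at group means. Psmd4 and the dimmer Psmd7 probe set are lowest on HCR trained 2, while the brighter Psmd7 probe set and Psmc2 stay within 0.5 of 0 on all 16 arrays.

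Training of LCR rats also left 0 of 46 genes past the threshold, with 1 of 31042 probe sets (0.00322%) past it. At an unadjusted p under 0.05, 4 members were higher (3.70% of all genes) and 1 was lower (7.00% of all genes). The median difference was 0.03, with 29 of 46 above 0, beside -0.03 over all genes, of which 41.3% were above 0. Among the 30 standard subunits 24 were above 0, with a median of 0.08. With the beta-actin control as a covariate 12 of 30 were above 0, and the median over the 46 genes was -0.0247.

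Psme3ip1 had the smallest p. It measured 8.66, 8.62, 8.68 and 8.68 in LCR trained rats, against 8.94, 8.99, 8.82 and 8.86 in LCR sedentary rats, with no overlap. The difference was -0.24 ± 0.07 (SE, limma adjusted p = 0.313). Psmc6, an ATPase, measured 9.41, 9.52, 9.32 and 9.18 in LCR trained rats, against 8.81, 9.11, 9.12 and 9.10 in LCR sedentary rats. All trained values lay above all sedentary values, and the difference was 0.32 ± 0.10 (SE, limma adjusted p = 0.361). A second probe set of Psmc6 had a difference of 0.51.

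Psmd6, a lid subunit, differed by 0.20 ± 0.07 (SE, limma adjusted p = 0.383) and its groups did not overlap. It measured 10.84, 10.94, 10.88 and 10.88 in LCR trained rats, against 10.55, 10.65, 10.75 and 10.79 in LCR sedentary rats. Psma3 differed by 0.24 ± 0.10 (SE, limma adjusted p = 0.459). It measured 7.85, 8.09, 8.05 and 8.15 in LCR trained rats, against 7.92, 7.86, 7.70 and 7.69 in LCR sedentary rats, and LCR trained 1 lay among the sedentary values. In all, 4 members were higher and 1 lower with no overlap, against 3.33% and 6.82% of all genes.

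Between the trained rats of both lines, 0 of 46 genes passed, and 116 of 31042 probe sets (0.374%) did. At an unadjusted p under 0.05, 5 members were higher in HCR (12.9% of all genes) and 9 lower (5.13%). The median difference, HCR trained minus LCR trained, was -0.06, with 18 of 46 above 0, beside 0.05 over all genes, of which 64.3% were above 0. Of the 30 standard subunits 9 were above 0, and 20 with the beta-actin control as a covariate.

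Psme3ip1 again had the smallest p. It measured 8.93, 8.91, 8.76 and 8.997 in HCR trained rats, against 8.66, 8.62, 8.68 and 8.68 in LCR trained rats, with no overlap and a difference of 0.24 ± 0.07 (SE, limma adjusted p = 0.0924). It passed with array weights (0.29, limma adjusted p = 0.00679) and without HCR sedentary 2 and HCR trained 3 (0.29, limma adjusted p = 0.0262). Psmd9, a chaperone of 19S base assembly, measured 8.18, 7.84, 8.21 and 8.22 in HCR trained rats, against 7.86, 7.90, 7.79 and 7.85 in LCR trained rats. Only HCR trained 2 lay among the LCR values. The difference was 0.26 ± 0.09 (SE, limma adjusted p = 0.129), and with array weights it was 0.32 (limma adjusted p = 0.0155). The other Psmd9 probe set had a difference of 0.06 in the main fit.

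Psmb5, which carries the chymotrypsin-like activity, measured 11.82, 12.06, 12.15 and 11.91 in HCR trained rats, against 11.85, 11.69, 11.82 and 11.80 in LCR trained rats. HCR trained 1 lay within the LCR range, and the difference was 0.20 ± 0.07 (SE, limma adjusted p = 0.148). Psmd4 had a difference of -0.84 ± 0.30 (SE, limma adjusted p = 0.150), with all HCR trained values, given above, below all LCR trained values. Without HCR trained 2 the Psmd4 difference was -0.50. In all, 2 members were higher and 5 lower with no overlap, against 8.90% and 3.52% of all genes.

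Between sedentary rats, all 30 standard 20S and 19S subunits were higher in HCR by the sign of the difference, though 0 of 46 members passed and 3 of 31042 probe sets (0.00966%) did. The median over the 30 was 0.16. Over the 46 genes it was 0.10, with 36 above 0, beside 0.00 over all genes, of which 49.0% were above 0. The number above 0 among the 30 was 28 to 30 when any 1 array was left out and 24 with the beta-actin control as a covariate. The median over the 46 was 0.05 without HCR sedentary 2. The subunits varied together, so the 30 signs are not independent. At an unadjusted p under 0.05, 4 members were higher (3.91% of all genes) and 1 lower (5.99%).

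Psme4, an activator that caps the 20S core, had the smallest p, and it was lower in HCR by sign. It measured 9.97, 10.54, 10.26 and 10.05 in HCR sedentary rats, against 10.60, 10.49, 10.53 and 10.63 in LCR sedentary rats. HCR sedentary 2 lay within the LCR range. The difference was -0.36 ± 0.11 (SE, limma adjusted p = 0.530), and the other probe sets had -0.42 and -0.28.

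Psmc4, an ATPase, measured 10.48, 10.92, 10.50 and 10.54 in HCR sedentary rats, against 10.31, 10.35, 10.39 and 10.43 in LCR sedentary rats. The groups did not overlap, and the difference was 0.24 ± 0.09 (SE, limma adjusted p = 0.564), or 0.14 without HCR sedentary 2. Psma3 measured 8.05, 8.00, 7.98 and 8.17 in HCR sedentary rats, against 7.92, 7.86, 7.70 and 7.69 in LCR sedentary rats. It too was free of overlap, with a difference of 0.26 ± 0.10 (SE, limma adjusted p = 0.581). Psmb1 had a difference of 0.23 ± 0.09 (SE, limma adjusted p = 0.588), which was 0.14 without HCR sedentary 2. In all, 5 members were higher and 0 lower with no overlap, against 2.36% and 3.28% of all genes.

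The interaction, the training difference in HCR minus that in LCR, had 0 of 46 members and 0 of 31042 probe sets (0%) past the threshold. At an unadjusted p under 0.05, 1 member was above 0 (13.1% of all genes) and 12 below (5.96%). The median was -0.17 over the 46 genes, with 15 above 0, beside 0.06 over all genes, of which 60.4% were above 0. For 18 of the 30 standard subunits the difference was below 0 in HCR training and above 0 in LCR training. The interaction was above 0 for 5 of the 30 (2 without HCR sedentary 3, 6 without HCR sedentary 2). With the beta-actin control as a covariate it was above 0 for 15.

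The members of smallest p were Psme3ip1 (0.35 ± 0.10), Psma4 (-0.63 ± 0.18), Psmd6 (-0.31 ± 0.10) and Psmb1 (-0.43 ± 0.13), with SE and limma adjusted p of 0.123, 0.124, 0.139 and 0.140. Psma4, whose HCR values are above, measured 9.96, 10.12, 10.00 and 9.86 in LCR trained rats, against 9.45, 9.72, 9.92 and 9.90 in LCR sedentary rats. Psmb1 measured 11.09, 11.12, 11.15 and 11.00 in LCR trained rats, against 10.81, 11.03, 11.00 and 11.04 in LCR sedentary rats. Both genes overlapped between the LCR groups, and LCR sedentary 1 was the lowest LCR rat in each.

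Averaged over lines, training left 0 members past the threshold, with 2 of 31042 probe sets (0.00644%) past it. Before adjustment 3 members were higher at a p under 0.05 (6.82% of all genes) and 1 lower (4.21%), led by Psma3 at 0.25 ± 0.07 (SE, limma adjusted p = 0.230). Averaged over training, the lines had 0 members past it, with 27 of 31042 probe sets (0.087%). Before adjustment 4 members were higher in HCR (5.93% of all genes) and 1 lower (3.68%), led again by Psma3 at 0.27 ± 0.07 (SE, limma adjusted p = 0.239). The median differences were -0.03 and 0.01, and both changed sign without HCR sedentary 2 (0.0042 and -0.0268).

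At the probe set used for each gene, the intervals limit how large a missed difference could be. For 45 of 46 genes the 95% interval of the HCR training difference lay within 1 log2 unit of 0, and for 33 within 0.5. In LCR training the counts were 46 and 35. The gene outside 1 log2 unit in HCR training was Psmd4. For the interaction the counts were 40 and 23 of 46. Other probe sets were not counted, such as the dimmer one of Psmd7, with -1.34 ± 0.55 (SE) for HCR training.

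The inducible subunits were highest on another array than the standard ones, and second highest on HCR sedentary 2. Within groups their r with the mean of the standard subunits was 0.21 for Psmb8, 0.17 for Psmb9 and 0.15 for Psmb10, over 16 arrays and as a description. Psmb8 measured 6.67, 6.84, 6.70 and 6.79 in HCR trained rats, against 6.78, 7.27, 6.55 and 6.95 in HCR sedentary rats. In LCR rats it measured 6.62, 7.16, 7.06 and 7.26 in the trained, against 6.73, 7.95, 6.88 and 6.62 in the sedentary. LCR sedentary 2 was the highest of 16, and apart from it the groups overlapped.

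Psmb9 measured 7.19, 7.25, 6.89 and 7.30 in HCR trained rats, against 7.31, 7.69, 6.73 and 7.50 in HCR sedentary rats. In LCR rats it measured 6.83, 6.84, 7.26 and 7.13 in the trained, against 6.84, 8.59, 7.10 and 6.70 in the sedentary. Psmb10 lay between 7.22 and 7.42 in HCR trained rats and between 7.10 and 7.51 in HCR sedentary rats, and between 6.93 and 7.18 in LCR trained rats and 7.02 and 8.00 in LCR sedentary rats. All 3 genes were thus highest on LCR sedentary 2, and 0 of the 3 had an unadjusted p under 0.05 in any of the simple comparisons or the interaction. Psme1, the partner of Psme2, was also highest there, at 11.22, and Psme2 was second highest of the LCR sedentary and trained rats at 9.43.

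On the same array the mean deviation of macrophage and leukocyte markers was 0.05, against -0.39 to -0.37 in the other 3 LCR sedentary rats. That of the list of antigen processing and interferon genes was 0.19, second to HCR sedentary 2 (0.32), against -0.18 to -0.10 in the other 3 LCR sedentary rats. Both lists were thus higher there than in the rest of the group, and their part in the inducible values was not tested. Of the 15 measured genes of that list 0 had their highest value on LCR sedentary 2, and 6 had it on HCR sedentary 2. The standard partners stayed level on LCR sedentary 2. Psmb5 was 11.89 there, against 11.69 to 12.15 over all other arrays, and Psmb7 was 11.56, against 11.37 to 11.88.

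**Figure D4:**
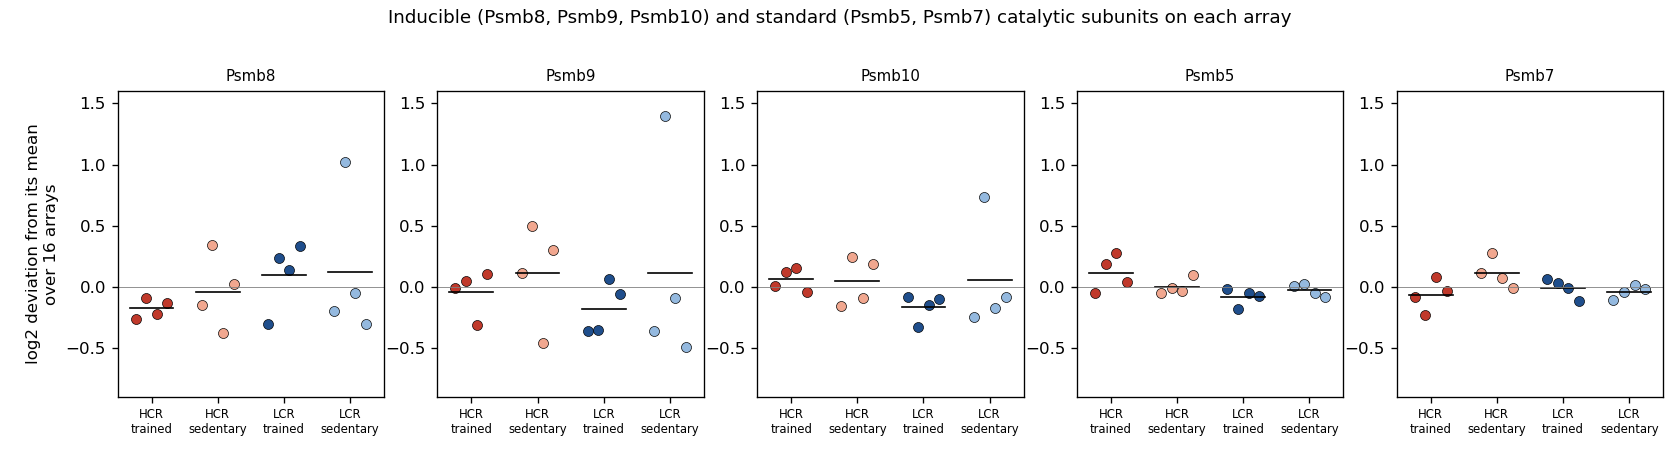
Log2 deviation of 3 inducible (Psmb8, Psmb9, Psmb10) and 2 standard (Psmb5, Psmb7) cutting subunits from their own mean on each array, points in replicate order within a group and bars at group means. The second LCR sedentary rat is highest for the 3 inducible genes, and lies within the range of the other arrays for both standard ones.

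The remaining activators and the inhibitor overlapped between all groups. Psme1 averaged 10.74 ± 0.11 in HCR trained rats, against 10.86 ± 0.15 in HCR sedentary rats, and 10.86 ± 0.13 in LCR trained rats, against 10.97 ± 0.18 in LCR sedentary rats (SD, n = 4 each, as below). Psme2 averaged 8.97 ± 0.14 in HCR trained rats, against 9.19 ± 0.21 in HCR sedentary rats, and 9.18 ± 0.25 in LCR trained rats, against 9.23 ± 0.15 in LCR sedentary rats. Psmf1, an inhibitor of the 20S core, averaged 8.61 ± 0.15 in HCR trained rats, against 8.57 ± 0.02 in HCR sedentary rats, and 8.62 ± 0.05 in LCR trained rats, against 8.67 ± 0.11 in LCR sedentary rats. None of these 3 had an unadjusted p under 0.05 in the simple comparisons or the interaction at the probe set used. The second Psme1 probe set had a difference of 0.31 between sedentary lines, against -0.11 at the one used. The signs of the 2 probe sets also differed for LCR training and between trained lines.

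**Figure D5:**
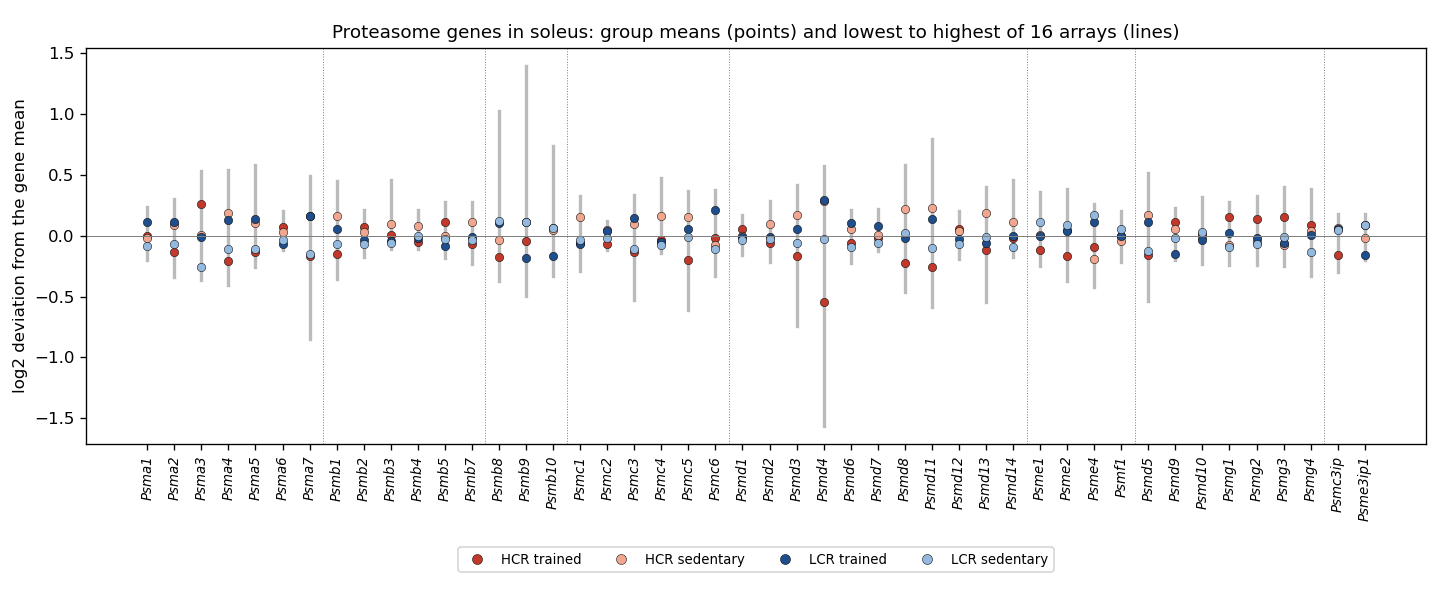
Group means (points) and the lowest to highest of 16 arrays (lines) of each gene as log2 deviation from its own mean, with genes ordered by role and dotted lines between roles. Psmd4 and Psmb9 have the widest lines, and Psmc2 has the narrowest.

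The genes differed in how much rats of 1 group varied. The SD within groups, pooled over the 4 groups, had a median of 0.14 over the 46 genes, beside 0.15 over all genes. It was 0.05 for Psmc2, an ATPase, which is at the 0.542 percentile of all genes. It was 0.47 for Psmd4 and 0.50 for Psmb9, at the 95.8 and 96.5 percentiles. For Psmb9 the SD was 0.87 in LCR sedentary rats, where LCR sedentary 2 was at 8.59. It was 0.19 to 0.41 in the other groups.

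Within groups the standard subunits varied together. Over 16 arrays, as deviations from group means, the median Pearson r between pairs was 0.48 for the 30 standard subunits, beside 0.02 for all pairs of genes. It was 0.61 for the ATPases, 0.60 for the non-ATPases, 0.44 for the beta ring, 0.09 for the alpha ring and 0.84 for the 3 inducible subunits. The 3 inducible subunits had a mean deviation of 1.05 on LCR sedentary 2, against -0.29 to -0.11 in the rest of that group. Their r without that array was not computed. All these r values share the arrays and the labelling of each array, and they are a description. Against the mean of the other standard subunits, 18 of 30 had r above 0.7, led by Psmb1 (0.98), Psmd11 (0.93) and Psmc3 (0.92). Psmb5 (-0.32) and Psma3 (-0.19) were the 2 of 30 below 0. Among the other members Psme3ip1 (-0.57) and Psmg4 (-0.56), a chaperone, ran opposite to the subunits.

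Other genes of the pathway were taken from 3 lists, and 0 of their genes passed in the simple comparisons or the interaction. The first held partners and regulators of the proteasome, with 23 of 28 genes measured. For HCR training 12 of 23 differences were above 0, with a median of 0.02. In this comparison Nsfl1c, a cofactor of the segregase Vcp, had -0.29 ± 0.09, and Akirin2, a factor of proteasome import into the nucleus, had -0.91 ± 0.30 (SE, limma adjusted p = 0.129 and 0.147). Between trained lines Akirin2 had -1.09 ± 0.30 and Nfe2l1, the transcription factor that raises subunit genes when proteasome activity is low, had 1.13 ± 0.32 (SE, limma adjusted p = 0.0826 and 0.0890). Akirin2 was lowest on HCR trained 2 (5.61), against 6.435 to 6.95 in the rest of that group. Its next lowest value was on LCR sedentary 1 (6.22), and these arrays were also the highest on the beta-actin control. Between sedentary lines Nfe2l1 had 0.94 ± 0.32 (SE, limma adjusted p = 0.544) and Ngly1, an enzyme that activates Nfe2l1, had -0.21 ± 0.09 (SE, limma adjusted p = 0.590). For LCR training Fbxo7 (-0.21) and Ubqln4 (-0.60) led, with limma adjusted p of 0.451 and 0.475. For the interaction Fbxo7 (0.44) and Nsfl1c (-0.43) led, with limma adjusted p of 0.120 and 0.129.

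The second list held ubiquitin and its activating and conjugating enzymes, with 15 of 20 genes measured. For HCR training 10 of 15 were above 0, with a median of 0.06, and for LCR training 3 of 15, with a median of -0.08. Ube2r2, a conjugating enzyme, had 0.35 ± 0.08 for HCR training and 0.32 ± 0.08 between trained lines (SE, limma adjusted p = 0.0706 and 0.0675). Ube2d1 had 0.61 ± 0.21 for HCR training (SE, limma adjusted p = 0.163) and Cdc34 had 0.26 ± 0.08 between trained lines (SE, limma adjusted p = 0.118). For LCR training Stub1 had -0.28 and Cdc34 -0.19 (limma adjusted p = 0.319 and 0.476). Between sedentary lines Ube2b had -0.25 and Ube2r2 -0.13 (limma adjusted p = 0.613 and 0.651). For the interaction Ube2r2 had 0.45 and Ube2d1 0.63 (limma adjusted p = 0.105 and 0.277).

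The third list held antigen processing and interferon genes, with 15 of 19 measured. For HCR training 6 of 15 were above 0, with a median of -0.02, and for LCR training 14 of 15, with a median of 0.06. Cd74, the invariant chain of MHC class II, had -1.24 ± 0.38, and Tap1, a peptide transporter encoded beside the inducible subunits, had -0.44 ± 0.15 for HCR training (SE, limma adjusted p = 0.133 and 0.166). Between sedentary lines Cd74 had 1.11 ± 0.38 and Tapbp 0.25 ± 0.09 (SE, limma adjusted p = 0.552 for both). Between trained lines Tapbp had 0.15 and Tap1 -0.24 (limma adjusted p = 0.371 and 0.391). For LCR training Erap1 had 0.16 and Cd74 0.47 (limma adjusted p = 0.595 and 0.699). For the interaction Cd74 had -1.71 and Tap1 -0.48 (limma adjusted p = 0.142 and 0.248). Without HCR sedentary 2 the Cd74 difference was -0.81 for HCR training and 0.68 between sedentary lines. Without HCR trained 3 the differences for HCR training were 0.39 for Ube2d1 and -0.28 for Tap1, and those between trained lines were 0.17 for Cdc34 and -0.08 for Tap1. Between sedentary lines Nfe2l1 had 0.59 without HCR sedentary 3, and without HCR sedentary 2 Tapbp had 0.17, Ube2b -0.11 and Ube2r2 -0.08.

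Markers of other cells differed in sign between the same comparisons. The 13 macrophage and leukocyte markers had 0 above 0 for HCR training (median -0.44), 12 for LCR training (0.58) and 13 between sedentary lines (0.55). The 7 fibroblast and matrix markers had 0, 7 and 7 above 0 there, with medians of -0.98, 0.96 and 0.84. Between trained lines 2 of 13 and 0 of 7 were above 0, with medians of -0.38 and -1.11, and the matrix gene Dcn passed the threshold (-0.66, limma adjusted p = 0.0391). The 4 endothelial markers had 3 above 0 for HCR training (median 0.23) and 4 for LCR training (0.28). Without overlap in LCR training, 3 endothelial, 3 macrophage and leukocyte and 1 matrix marker were higher, against 3.33% of all genes. Lower without overlap there were 1 slow fibre and 1 adipocyte marker, against 6.82% of all genes. The 8 fast fibre markers had 5 and 7 above 0 for training in HCR and LCR (0.11 and 0.30), and the 7 slow fibre markers had 0 and 2 (-0.56 and -0.04). The 5 adipocyte markers had 4 and 1 above 0 there (0.48 and -0.72), and the 2 blood markers had 2 and 2 (0.12 and 0.28). On HCR trained 3 the slow fibre mean deviation was -2.28, against 0.08 to 0.20 in the rest of that group. It was -0.01 to 0.25 in HCR sedentary rats. On HCR sedentary 2 the macrophage and leukocyte mean was 1.29, against -0.23 to 0.15 in the rest of that group. The matrix mean there was 1.93, against -0.50 to 0.13. In HCR trained rats these 2 means were -0.57 to -0.01 and -0.88 to -0.42. List medians without these arrays were not computed. The part of these lists in the proteasome differences was not tested.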

How the data were processed

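Total RNA from 20 mg of soleus per rat was hybridised to 16 Affymetrix arrays. Each probe set has 1 log2 value per array, as deposited by the authors. The submitters' processing notes name RMA and limma, whose versions are not given in the sources used here. No detection calls come with the values, so no detection floor was applied, and 4 arrays a group limit the precision. Without 57 control probe sets, limma 3.58.1 in R 4.3.3 fitted 4 group means to 31042 probe sets over all 16 arrays (12 residual degrees of freedom), in 7 comparisons with Benjamini-Hochberg adjustment at 0.05. Genes were named by the platform annotation, and all 46 gene identifiers were found in RefSeq GRCr8. The labels describe separate rats.

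The members and lists were chosen with earlier results of these data known, and a list is described by counts and medians, without a test. Named are, in each simple comparison and the interaction, the 4 members of smallest unadjusted p and any that passed, the cutting subunits, activators and inhibitor, and the 2 list genes of smallest p. Further members were named with their values in view. Alternatives were median centring, renewed quantile normalization, leaving out dim probe sets (brightest group mean below the 40th percentile), a variance trend with robust moderation, array weights, the replicate number as a block, the groups compared alone, the mean of all probe sets of a gene, the beta-actin control as a covariate, and leaving out arrays. Protein sequences were not used here.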

Additional observations from a re-analysis of the deposited data

Results flagged for a closer look

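In 192 groups of 4 arrays, 20 values lay far from the other 3 by Dixon's test. Chance flags about 1 in 20 groups, and the groups share arrays. On HCR sedentary 2 the high values were Psma5 (11.09), Psmb1 (11.48), Psmc4 (10.92), Psmd11 (11.70), Psmd13 (9.68), Psmd6 (10.99) and Psme2 (9.49), and the mean deviation of the 30 standard subunits (0.30). On HCR trained 2 the low values were Psmd2 (11.01), Psmd3 (8.67), Psmd4 (7.98) and Psmd9 (7.84), and the same mean (-0.27). On LCR sedentary 1 the low values were Psmb1 (10.81), Psmc3 (9.96) and Psmc6 (8.81). On LCR sedentary 2 the high values were Psmb10 (8.00), Psmd13 (9.35) and the mean of the inducible subunits (1.05). On HCR trained 3 Psme4 was high (10.54). The part of labelling or cell makeup in these values was not tested.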

How the results depend on the processing

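Across 11 alternative settings and 16 fits without 1 array, the count of members past the threshold stayed at 0 except as follows. With array weights 3 members passed between trained lines (Psmd11, -0.38, limma adjusted p = 0.0499; Psmd9; Psme3ip1), 1 for training averaged over lines (Psmg1, 0.20, limma adjusted p = 0.0466) and 1 for line averaged over training (Psme4, -0.36, limma adjusted p = 0.0275). In the main fit the other Psmd11 probe sets had 0.08 and 0.13 between trained lines, opposite in sign to the one used (-0.39). Without HCR sedentary 2 and HCR trained 3 together, 1 passed between trained lines (Psme3ip1). In the same fit 1 passed for line averaged over training (Psme4, -0.38, limma adjusted p = 0.0161). The median difference for HCR training was -0.0346 with array weights, -0.0359 without HCR sedentary 2 and HCR trained 3, -0.0293 without HCR sedentary 2 and HCR trained 2 (chosen after seeing the data) and 0.0044 with the beta-actin control as a covariate. With that covariate the medians were -0.0247 for LCR training, 0.0556 between trained lines, 0.0212 between sedentary lines and 0.0296 for the interaction. The interaction median was -0.0587 without HCR sedentary 2 and HCR trained 2. The median for training averaged over lines turned to 0.0134 with array weights and 0.0147 without HCR sedentary 2 and HCR trained 2, and that for line averaged over training to -0.0033 with array weights and -0.0150 without HCR sedentary 2 and HCR trained 3. The causes were not tested.

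Without 1 array the medians ran from -0.163 to -0.0424 for HCR training (highest without HCR sedentary 2), 0.03 to 0.07 for LCR training, -0.103 to -0.0203 between trained lines (highest without HCR trained 2), 0.0469 to 0.144 between sedentary lines (lowest without HCR sedentary 2), -0.194 to -0.105 for the interaction (highest without HCR sedentary 2), -0.0585 to 0.0042 for training averaged over lines and -0.0268 to 0.0524 for line averaged over training. The 4 members of smallest p in each simple comparison and the interaction gave 20 results, with 536 values under alternatives. Of these values 0 turned sign and 3 went past the threshold, which are among the 7 passes above. The 20 results were picked by their p in the same data, which favours a stable sign. Leaving out an array outside the groups compared also cannot change a difference, so the sign count is only a description. The replicate block gave 0 members past the threshold throughout, with a smallest limma adjusted p of 0.161 for HCR training. Over 24 pairs of same-numbered arrays r ran from -0.48 to 0.57, with 8 above 0.1. With 4 arrays a group these values cannot show whether same-numbered arrays share more than a number, and the labels do not say.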
